A study of Mus musculus with 8 samples.

Results

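Oxidative phosphorylation is carried out by 4 proton-pumping or ATP-making enzymes of the inner mitochondrial membrane, and the genes examined here were the protein-coding genes whose NCBIM37 (mm9) symbols begin with the names used for subunits of complexes I, III, IV and V. The symbol rule found 100 of the 36536 genes with a count. Of these, 87 lie in the nucleus and 13 in the mitochondrial genome. Of the nuclear genes, 80 were taken as subunit genes by symbol, with 38 of complex I, 8 of complex III, 18 of complex IV and 16 of complex V. The symbol alone does not show that each encodes a subunit, and among them is a gene whose symbol marks a pseudogene. *Ndufa4*, now placed in complex IV, is counted with complex I by its symbol. The other 7 share the symbols without encoding a subunit, and they were *Ndufaf1*, *Ndufaf2*, *Ndufaf3*, *Ndufaf4*, *Cox4nb*, *Atp5s* and *Atp5sl*. The 13 mitochondrial genes encode 7 subunits of complex I, 1 of complex III, 3 of complex IV and 2 of complex V.

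The libraries came from mice carrying the Lfng-EGFP bacterial artificial chromosome transgene, in which *Lfng* regulatory sequence drives GFP in most cochlear supporting cell types but not in inner pillar cells. At postnatal day 1 (P1) and day 6 (P6), GFP- cells and the GFP+ cells of highest brightness were sorted from freshly dissected, papain-treated cochleas, without any drug treatment. Each of the 4 groups has 2 libraries, all from transgene carriers, and dimly fluorescent cells were not collected. The lateral wall was separated at P1 and only partly removed at P6, so in GFP- cells age and dissection cannot be told apart. The labels do not say that the replicates came from separate animals, and p-values therefore measure only the spread between these libraries.

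Complex I takes electrons from NADH, complex III passes them from ubiquinol to cytochrome c, and complex IV passes them to oxygen. The proton gradient that these enzymes build drives complex V, the ATP synthase. Most subunits are translated in the cytosol and imported, while the core subunits from the mitochondrial genome are cut out of long transcripts that run around the circle, so each enzyme except complex II is assembled from the products of both genomes.

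The depth was 17769024 to 67695039 counts on genes per library. The 7 supporting cell markers summed to 4763 to 7519 CPM (counts per 1000000 gene counts of a library) in GFP+ libraries and at most 262.4 CPM in GFP- libraries. The 6 hair cell markers summed to 400 to 786 CPM in GFP+ and 334 to 451 CPM in GFP- libraries. Most of this was *Myo6*, at 442 and 475.5 CPM in P1 GFP+ and 406 and 348.5 CPM in P1 GFP- libraries. *Otof* had 151 and 191 against 18.2 and 16.6 CPM there. Across the 6, the median log2 fold change of GFP+ over GFP- was 3.36 at P1 and 3.41 at P6. Mesenchyme and cartilage markers summed to 5187 to 9824 CPM in GFP+ and 23056 to 46935 CPM in GFP- libraries. *Col2a1* made up most of this in GFP+ libraries, while *Tbx18* had 10.7 and 12.3 CPM in P1 GFP+ and 852 and 611 CPM in P1 GFP- libraries. The part of these cells in the fraction comparisons was not tested. P6 GFP+ replicate 2 stood apart from replicate 1 in the markers of other cell types, with 9824 against 5187 CPM for mesenchyme and cartilage, 2343 against 1104 CPM for Schwann cells and 168.5 against 40.2 CPM for endothelial cells.

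Overlap between genes matters for the one mitochondrial gene that passed the test in sorted supporting cells, *mt-Atp8*, and the shared stretch is shown for that reason. *mt-Atp8* (chromosome M, 7766 to 7969, plus strand) and *mt-Atp6* (7927 to 8607, plus strand) encode complex V subunits from 1 transcript, in 2 reading frames that overlap by 43 bases. In the stretch at chrM:7927-7969 of NCBIM37, the capitals mark the start codon of *mt-Atp6* and the stop codon of *mt-Atp8*.
mt-Atp8 and mt-Atp6 overlap: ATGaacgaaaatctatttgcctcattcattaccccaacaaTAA
The complex I genes *mt-Nd4l* and *mt-Nd4* also lie on the same strand and share 7 bases, in capitals here within chrM:10157-10183.
mt-Nd4l and mt-Nd4 overlap: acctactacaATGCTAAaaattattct
Reads that fall in such a stretch cannot be given to 1 gene, and the counting mode is not given in the sources used here. *mt-Nd4l* had 1, 0, 1 and 2 counts in the P1 libraries and 0 in all P6 libraries, so nothing can be said of its level.

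A near-identical nuclear copy also touches these genes. NCBIM37 holds a stretch at chromosome 1, 24618374 to 24623027, that matches bases 6390 to 11042 of the mitochondrial genome with 99.936% identity over 4654 aligned bases. Of all 100-base windows, the read length used, 100% of those in *mt-Co2*, *mt-Atp8*, *mt-Atp6*, *mt-Co3* and *mt-Nd4l* are found unchanged there, with 98.8% for *mt-Nd3*, 60.75% for *mt-Nd4* and 26.28% for *mt-Co1*. No window of *mt-Nd1*, *mt-Nd2*, *mt-Nd5*, *mt-Nd6* or *mt-Cytb* is found there. Reads with several alignments are listed apart from the gene counts. Even so, *mt-Co2*, *mt-Co3* and *mt-Atp6* had means of 7347, 7089 and 6776 CPM per kilobase of exon over the 8 libraries. The means were 1894 for *mt-Atp8* and 0.0336 for *mt-Nd4l*, beside 4905 for *mt-Cytb* and 3953 for *mt-Nd1*. How reads shared with the copy were placed was not tested. The levels of the first group are thus uncertain, and results for mitochondrial genes are also given for the 5 genes without a copy of at least 98% identity. Less similar nuclear copies, of at least 90% identity, cover 100% of *mt-Nd6*, 99.9% of *mt-Cytb*, 61.4% of *mt-Nd5* and 49.2% of *mt-Nd2*, and none of *mt-Nd1*.

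Counts on mitochondrial members took a larger share of the gene counts in GFP+ than in GFP- libraries at both ages. At P1 the share was 6.75% and 4.61% in the GFP+ libraries and 3.52% and 3.42% in the GFP- libraries. At P6 it was 8.34% and 5.86% in GFP+ and 2.54% and 3.03% in GFP- libraries. The lowest GFP+ library lay above the highest GFP- library at each age, with mean shares of 5.68% ± 1.51 against 3.47% ± 0.0701 at P1 and 7.10% ± 1.75 against 2.78% ± 0.350 at P6 (SD, n = 2). The ribosomal RNAs of the same genome, which are not members, did not follow at P1. They summed to 559 and 403 CPM in P1 GFP+ and 569 and 693 CPM in P1 GFP- libraries. The P1 GFP+ values were lower, but the nearest libraries, at 559 and 569 CPM, were almost equal. At P6 they summed to 905 and 549 CPM in GFP+ and 419.5 and 451 CPM in GFP- libraries, higher in GFP+. The libraries were prepared from poly-A RNA, and how much of these RNAs each captured was not tested.

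Nuclear members did not share this pattern at P1. Their summed share was 0.481% and 0.498% in P1 GFP+ libraries and 0.487% and 0.530% in P1 GFP- libraries, and these ranges overlapped. At P6 the share was 0.763% and 0.589% in GFP+ and 0.481% and 0.470% in GFP- libraries, without overlap. P6 GFP+ replicate 1 thus held the highest share of both gene classes among the 8 libraries.

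The balance of the genomes was compared as the log2 ratio of summed mitochondrial to summed nuclear counts. It was 3.81 and 3.21 in P1 GFP+, 2.86 and 2.69 in P1 GFP-, 3.45 and 3.31 in P6 GFP+ and 2.40 and 2.69 in P6 GFP- libraries. All GFP+ libraries lay above all GFP- libraries, by 0.74 at P1 and by 0.84 at P6 on the log2 scale. An exact permutation test of fraction with labels permuted within each age gave a mean difference of 0.79 (two-sided p = 0.0556, the smallest this design can give, Benjamini-Hochberg adjusted p = 0.167 over 6 tests of the shares and the ratio), so the design cannot reach 0.05. With the 5 mitochondrial genes that have no copy of at least 98% identity, the differences were 0.74 at P1 and 0.84 at P6. Between the ages the ratio was lower at P6 by a mean of 0.18 on the log2 scale (exact permutation p = 0.333), and the GFP+ libraries of the ages overlapped. In GFP- cells the mean was lower at P6 by 0.23, but replicate 2 was nearly equal, at 2.688 at P6 and 2.691 at P1. Without P6 GFP- replicate 1 the difference in GFP- cells was -0.085. In bulk libraries, fewer cells rich in a transcript and less transcript per cell cannot be told apart.

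**Figure D1:**
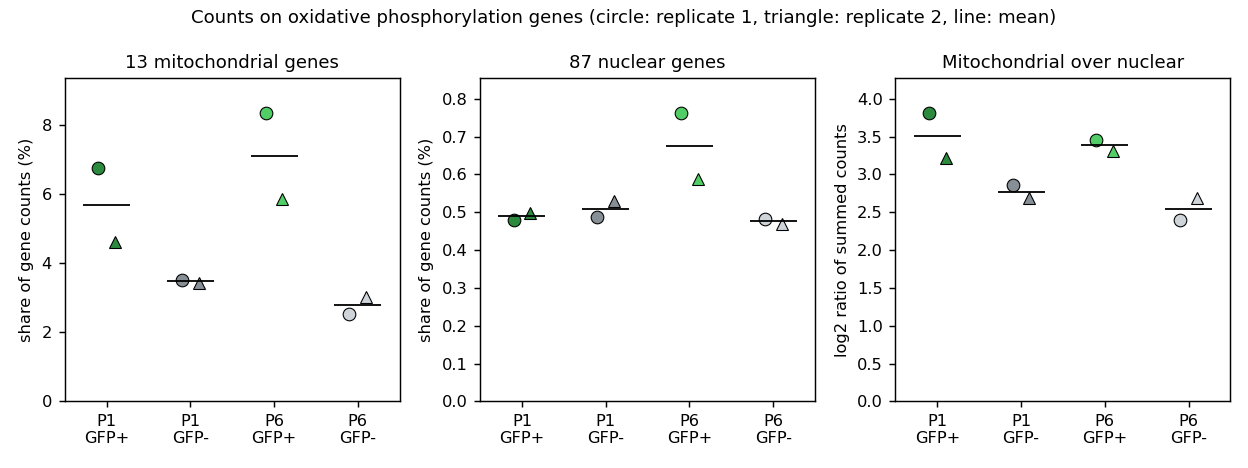
Share of gene counts on the 13 mitochondrial genes (left, percent), on the 87 nuclear genes (middle, percent) and the log2 ratio of their summed counts (right) in each of the 8 libraries, with lines at the group means. The mitochondrial share and the ratio are higher in every GFP+ library than in every GFP- library, while the nuclear share is apart only at P6.

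Per length, mitochondrial members stood far above nuclear ones. The mean RPKM over the 8 libraries (CPM divided by exon length in kilobases) ranged from 1303 for *mt-Nd3* to 7347 for *mt-Co2* among the 12 mitochondrial genes other than *mt-Nd4l*. By RPKM, the highest nuclear member was *Cox4i1*, the general isoform of complex IV subunit 4, at 244 RPKM. Next were *Ndufa4* at 209 RPKM, *Cox8a* at 178 RPKM, *Atp5a1*, the ATP synthase alpha subunit, at 174.5 RPKM and *Cox6b1* at 164 RPKM. The exon length counts all annotated exons of a gene, so this order can differ with the length of a single transcript. At the other end, *Cox8c*, *Cox6a2* and *Cox7b2*, isoforms best known from testis or striated muscle, had 2, 11 and 39 counts over all libraries together, which is too few to compare.

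For tests of single genes, each comparison was fitted on its 4 libraries with edgeR, and a gene was called when p and the adjusted p were below 0.01. At P1, 95 of the 100 members passed the filter on low counts and 10 were called between GFP+ and GFP- cells. Higher in GFP+ cells were *Cox4i2*, *Uqcrq*, *Uqcr11*, *Cox8a*, *Uqcrc2*, *Ndufa6* and *mt-Atp8*, which is 7 members where 16.6% of all 18682 tested genes were called higher. Lower were *Ndufa4l2*, *Cox6b2* and *Ndufb4*, which is 3 members where 20.7% of all tested genes were called lower. The median log2 fold change was 0.08 over the 83 nuclear members tested and 0.85 over the 12 mitochondrial members tested, beside 0.01 over all genes. The balance of calls depended on the scaling, with 4 members higher and 4 lower with gene totals in place of TMM and 6 higher and 3 lower with DESeq2's size factors. With gene totals the nuclear median was -0.02, so it has no settled sign.

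*Cox4i2*, the alternative isoform of complex IV subunit 4 known for its response to low oxygen (chromosome 2, 152579909 to 152590773), had the largest log2 fold change of the 10 members called at P1. It had 62.3 and 62.1 CPM in P1 GFP+ libraries and 2.77 and 1.76 CPM in P1 GFP- libraries. At P6 it had 59.7 and 32.1 CPM in GFP+ and 2.25 and 2.91 CPM in GFP- libraries. The groups were far apart at both ages. The log2 fold change was 4.91 (SE 0.22, edgeR adjusted p = 2.8e-05) at P1 and 4.15 (SE 0.38, edgeR adjusted p = 0.00186) at P6, and it did not differ between the ages past the threshold (interaction -0.76, SE 0.46, edgeR adjusted p = 0.397). Its call at P6 was lost without P6 GFP- replicate 2 (edgeR adjusted p = 0.0189).

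The general isoform *Cox4i1* showed no such split. It had 151 and 140 CPM in P1 GFP+ libraries against 164 and 178 CPM in P1 GFP- libraries. Its log2 fold change was -0.13 at P1 and 0.43 at P6, neither past the threshold. Per length, *Cox4i2* made up 26.2% and 27.6% of the sum of both isoforms in P1 GFP+ libraries, 18.1% and 14.6% in P6 GFP+ libraries and at most 1.71% in the 4 GFP- libraries. No near-identical genomic copy of either transcript was found, so these counts are not touched by shared reads of that kind.

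Complex III, the cytochrome bc1 complex, gave 3 of the 7 higher calls at P1. *Uqcrq*, a small subunit near cytochrome b (chromosome 11, 53241424 to 53244333), had 41.9 and 51.5 CPM in P1 GFP+ against 24 and 28.2 CPM in P1 GFP- libraries. At P6 it had 105 and 71.8 CPM in GFP+ against 31.4 and 32.9 CPM in GFP- libraries. GFP+ libraries were higher at each age, by a log2 fold change of 0.94 (SE 0.13, edgeR adjusted p = 0.00179) at P1 and 1.46 (SE 0.23, edgeR adjusted p = 0.00789) at P6. *Uqcrc2*, a core protein of the complex (chromosome 7, 127778690 to 127802992), had 147 and 143 CPM in P1 GFP+ against 111 and 114 CPM in P1 GFP- libraries (log2 fold change 0.47, SE 0.08, edgeR adjusted p = 0.00479). Its partner core protein *Uqcrc1* did not follow, with 86.9 and 104 CPM in GFP+ and 108 and 126 CPM in GFP- libraries at P1 (log2 fold change -0.19, edgeR adjusted p = 0.212). The smallest subunit called, *Uqcr11* (chromosome 10, 79865742 to 79869575), had 40.2 and 42.5 CPM against 26.9 and 31.4 CPM (log2 fold change 0.60, SE 0.11, edgeR adjusted p = 0.00518), and a near-identical copy covers 85.4% of its transcript.

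The calls for *Uqcrc2* and *Uqcr11* were lost with gene totals in place of TMM (edgeR adjusted p = 0.0105 and 0.0129), with all 8 libraries in 1 fit (0.0424 and 0.0699), and without either P1 GFP+ library (0.0302 to 0.0568). The call for *Uqcrq* was lost at P1 without P1 GFP+ replicate 2 (edgeR adjusted p = 0.0189) and at P6 without either P6 GFP- library (0.0451 and 0.058). Among the other 5 nuclear subunits of complex III, none was called at P1. The summed nuclear subunits of the complex were 539 and 550 CPM in P1 GFP+ and 484 and 529 CPM in P1 GFP- libraries.

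Complex IV and complex I gave the remaining nuclear calls at P1. *Cox8a*, the general isoform of complex IV subunit 8 (chromosome 19, 7289648 to 7292106), had 88.1 and 96.6 CPM in GFP+ and 61.9 and 69.7 CPM in GFP- libraries (log2 fold change 0.59, SE 0.09, edgeR adjusted p = 0.00309). *Ndufa6*, an accessory subunit of complex I (chromosome 15, 82180569 to 82184721), had 49.2 and 51.2 against 39.2 and 41.7 CPM (log2 fold change 0.42, SE 0.09, edgeR adjusted p = 0.00883), and it is named although 5 nuclear genes with larger changes were chosen by rule. In both genes the GFP+ libraries lay above the GFP- libraries. The call for *Cox8a* was lost with all 8 libraries in 1 fit (edgeR adjusted p = 0.023) and without either P1 GFP+ library (0.0237 and 0.035). The call for *Ndufa6* was lost with DESeq2's size factors (edgeR adjusted p = 0.0101), gene totals (0.0305), all 8 libraries in 1 fit (0.0868) and without either P1 GFP+ library (0.0784 and 0.0811).

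*Ndufa4l2*, a paralogue of *Ndufa4* induced by low oxygen in other cells (chromosome 10, 126951995 to 126954208), was the member most depleted from GFP+ cells at P1. It had 0.306 and 0.201 CPM in P1 GFP+ libraries (14 and 5 counts) and 3.88 and 3.41 CPM in P1 GFP- libraries (147 and 215 counts). The log2 fold change was -3.66 (SE 0.34, edgeR adjusted p = 0.000355). At P6 it had 1.18 and 2.28 CPM in GFP+ and 3.89 and 6.01 CPM in GFP- libraries, a log2 fold change of -1.5 that did not pass the threshold (edgeR adjusted p = 0.0417). *Ndufa4* itself had 97.0 and 93.5 CPM in P1 GFP+ against 79.4 and 83.3 CPM in P1 GFP- libraries (edgeR adjusted p = 0.02).

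*Cox6b2*, the isoform of complex IV subunit 6b best known from testis (chromosome 7, 4703396 to 4704696), had 3.06 and 3.09 CPM in P1 GFP+ against 8.97 and 8.30 CPM in P1 GFP- libraries (log2 fold change -1.38, SE 0.19, edgeR adjusted p = 0.00156). *Ndufb4*, an accessory subunit of complex I (chromosome 16, 37647256 to 37654539), had 2.38 and 2.93 against 6.10 and 6.58 CPM (log2 fold change -1.16, SE 0.21, edgeR adjusted p = 0.00534), and near-identical copies cover 49.9% of its transcript. These low genes were below every GFP- library in both P1 GFP+ libraries. Without P1 GFP+ replicate 1 or 2 their calls were lost, for *Cox6b2* (edgeR adjusted p = 0.0197 in each case) and for *Ndufb4* (0.0596 and 0.032). At P6 the *Ndufb4* libraries overlapped between the fractions, at 6.30 and 4.22 CPM in GFP+ and 4.31 and 4.77 CPM in GFP- libraries.

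**Figure D2:**
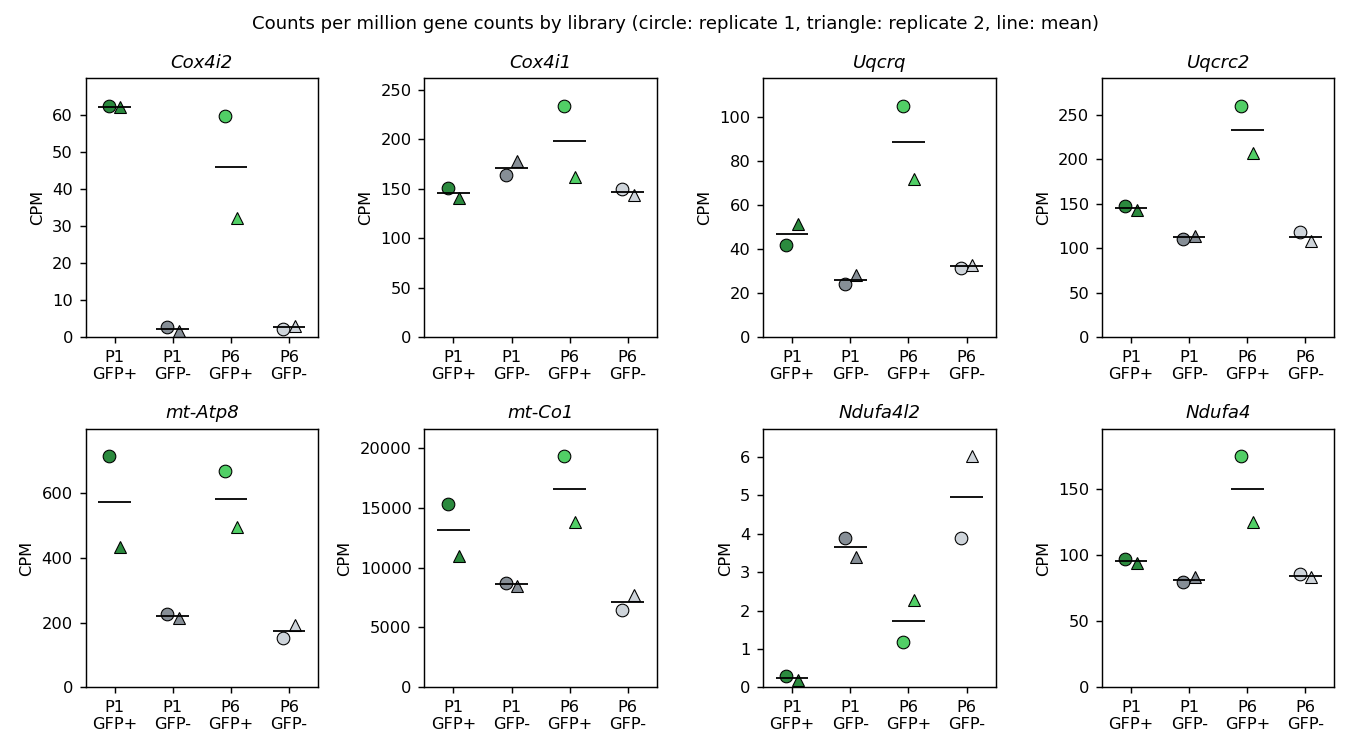
CPM (counts per 1000000 gene counts) of 8 members in each library, grouped by age and fraction, with lines at the group means and axes that start at 0. *Cox4i2* is at 32.1 to 62.3 CPM in GFP+ libraries and at most 2.91 CPM in GFP- libraries, whereas *Ndufa4l2* is lowest in P1 GFP+ cells.

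Among mitochondrial genes, *mt-Atp8* was called at both ages. It had 713 and 432 CPM in P1 GFP+ libraries and 226 and 213 CPM in P1 GFP- libraries. At P6 it had 668 and 494 CPM in GFP+ and 153 and 193 CPM in GFP- libraries. Its log2 fold change was 1.5 (SE 0.25, edgeR adjusted p = 0.00368) at P1 and 1.75 (SE 0.25, edgeR adjusted p = 0.00634) at P6, and the groups did not overlap. All of its sequence has the nuclear copy described above, and the call at P6 was lost without either P6 GFP- library (edgeR adjusted p = 0.0451 and 0.0427).

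The other 11 mitochondrial genes tested were higher in GFP+ cells by log2 fold changes of 0.72 (*mt-Co1*, the core catalytic subunit of complex IV) to 1.08 (*mt-Atp6*) at P1 and 1.17 (*mt-Nd5*) to 1.58 (*mt-Atp6*) at P6, and none of them was called by edgeR. All 12 were higher with p below 0.05 before adjustment at each age, where 28.6% of all tested genes were at P1 and 20.9% at P6, and DESeq2 called all 12 higher at each age at the same threshold. DESeq2 called 17.3% of its tested genes higher at P1 and 11.7% at P6. *mt-Cytb*, the complex III subunit that binds ubiquinol, has no nuclear copy above 92.9% identity. It had 7949 and 5423 CPM in P1 GFP+ and 3965 and 3810 CPM in P1 GFP- libraries, then 10023 and 7132 CPM in P6 GFP+ and 2990 and 3600 CPM in P6 GFP- libraries. *mt-Nd6*, the single member encoded on the opposite strand, had 1498 and 982 CPM against 667 and 769 CPM at P1. Its log2 fold changes were 0.90 at P1 and 1.43 at P6, within the range of the plus-strand genes. The kit does not mark strand, so reads of plus-strand RNA across *mt-Nd6* cannot be told from its own. The gene also shares 14 bases with *mt-Nd5*.

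Replicates of 1 group also differed in mitochondrial counts. P1 GFP+ replicate 2 was lower than replicate 1 in all 12 mitochondrial genes compared, with a median log2 difference of -0.58, while the nuclear members had a median difference of 0.03. The lower of these libraries still lay above both P1 GFP- libraries in each of the 12 genes, where 34.5% of all tested genes had both GFP+ libraries above both GFP- libraries. The libraries were prepared from poly-A RNA, and how completely mitochondrial transcripts were captured in each was not tested.

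At P6, 3 members were called between GFP+ and GFP- cells, all higher in GFP+ cells (*Cox4i2*, *Uqcrq* and *mt-Atp8*), where 7.72% of 18294 tested genes were called higher. No member was called lower, where 5.19% of genes were, with 1 member at an unadjusted p below 0.05 in that direction (24% of all genes) and 1 called lower by DESeq2 (13.5%). Nuclear members nevertheless leaned to GFP+ cells. Of the 84 tested, 78 had a log2 fold change above 0 with a median of 0.48, and 2 were called. Of all 87, 73 had both GFP+ libraries above both GFP- libraries in CPM, where 35.7% of tested genes did so. The medians were 0.49 for complex I, 0.66 for complex III, 0.56 for complex IV and 0.43 for complex V subunits. *Cox8a* (log2 fold change 1.03, edgeR adjusted p = 0.0149) and *Uqcrc2* (1.04, edgeR adjusted p = 0.0134) were just past the threshold on the other side.

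How many members were called at P6 changed with the library left out. The shares of all genes called in those fits are not given here, so their counts are not read as results about the members. Without P6 GFP+ replicate 1, the nuclear share was higher in GFP+ cells by 0.113 percentage points. It was higher by 0.287 points without P6 GFP+ replicate 2, the library with more counts on markers of other cell types. Replicate 2 was lower than replicate 1 in 82 of 84 nuclear members, with a median log2 difference of -0.42, and in all 12 mitochondrial members, with a median of -0.49. The part of the other cells in this gap was not tested.

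**Figure D3:**
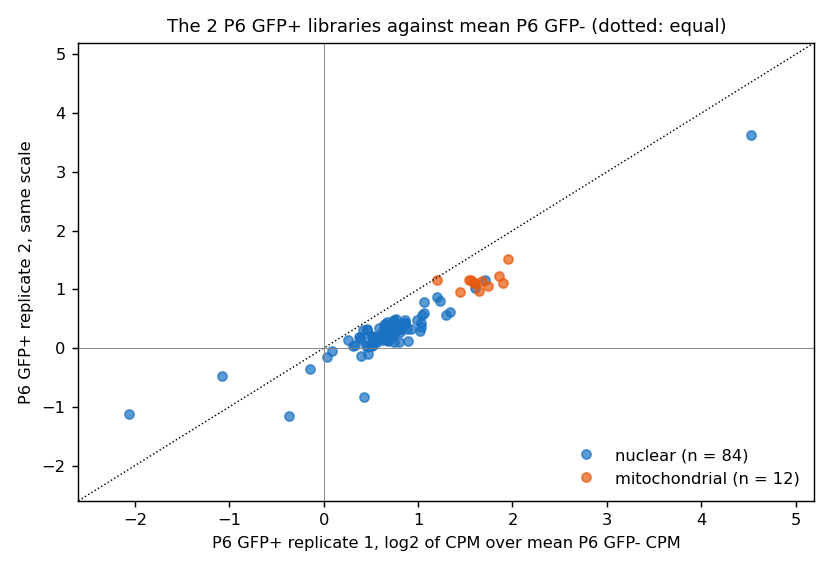
Each point is a member tested at P6, with the log2 of its CPM in P6 GFP+ replicate 1 (x axis) and replicate 2 (y axis) over the mean CPM of P6 GFP- cells, nuclear in blue and mitochondrial in orange. Nearly all points lie below the dotted line of equal values, since 82 of 84 nuclear and all 12 mitochondrial members were lower in replicate 2, and all 12 mitochondrial points lie above 0 on both axes.

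Between P1 and P6, no member was called in GFP+ cells by edgeR, where 2.86% of 17213 tested genes were called higher and 1.95% lower at P6. At an unadjusted p below 0.05 there were 52 members, all nuclear and all higher at P6, where 21.1% of all genes were higher and 17.1% lower. DESeq2 called 16 members, all higher, beside 11% of its tested genes. The nuclear median was 0.57, beside -0.0024 over all genes, and 80 of the 84 nuclear members tested were above 0. *Cox6a1*, the general isoform of complex IV subunit 6a, had 63.5 and 68 CPM at P1 and 154 and 111 CPM at P6. Its log2 fold change was 1.11 (SE 0.20, edgeR adjusted p = 0.0212), and no member had a smaller adjusted p in this comparison. Mitochondrial members had a median of 0.41, and the P1 and P6 libraries overlapped for all 12, whereas 29.3% of all genes were higher and 41.1% lower at P6 without overlap. How many members were called here also changed with the library left out, and the share of all genes called in those fits is not given. The nuclear share was higher at P6 by 0.0997 percentage points without P6 GFP+ replicate 1 and by 0.273 points without P6 GFP+ replicate 2.

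In GFP- cells, *Cox8b* was the only member called between the ages, where 5.04% of 18920 tested genes were called higher at P6 and 2.34% lower. *Cox8b*, the isoform of complex IV subunit 8 best known from heart and skeletal muscle (chromosome 7, 148084842 to 148086345), had 2 and 2 counts in P1 GFP- libraries and 50 and 58 counts in P6 GFP- libraries, which is at most 0.857 CPM (edgeR adjusted p = 0.00273). Its call was lost without either P6 GFP- library (edgeR adjusted p = 0.0267 and 0.0241). The 7 striated muscle markers summed to 2.31 to 2.96 CPM in P1 GFP- libraries and 1.30 to 1.51 CPM in P6 GFP- libraries. The nuclear median in GFP- cells was 0.12 with TMM and -0.07 with gene totals, so its direction depended on the scaling, which moved the median of all genes from -0.02 to -0.21. The CPM of all 12 mitochondrial members tested was lower at P6 without overlap in GFP- cells, where 48.9% of all tested genes were. None of the 12 had p below 0.05 there, and their median log2 fold change was -0.18.

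Whether the GFP+ to GFP- ratio changed with age was tested as an interaction over all 8 libraries. No member was called, where 0.946% of 19233 tested genes were called higher and 0.988% lower. At an unadjusted p below 0.05 there were 21 members, 20 of them positive, where 12.3% of all genes were positive and 8.98% negative. DESeq2 called 0 members, beside 4.71% of its tested genes in the positive and 2.88% in the negative direction. The median interaction was 0.41 for nuclear and 0.51 for mitochondrial members on the log2 scale. The smallest adjusted p-values belonged to *Cox7b* (1.11, SE 0.29, edgeR adjusted p = 0.0633) and *Ndufa4l2* (2.16, SE 0.57, edgeR adjusted p = 0.0657), so the greater depletion of *Ndufa4l2* at P1 was not shown to differ from that at P6. The number called changed without P6 GFP+ replicate 2, and the share of all genes called in that fit is not given.

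**Figure D4:**
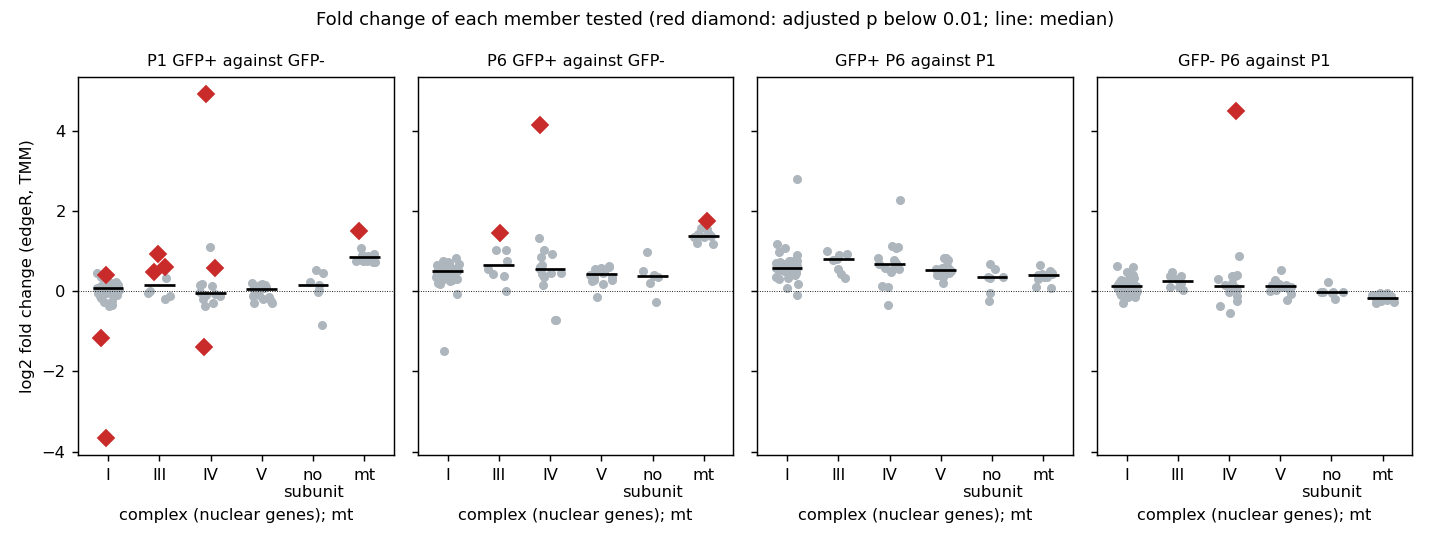
Log2 fold change of every member tested (y axis, edgeR with TMM) in the 4 comparisons, by complex for nuclear subunits, then the nuclear genes that encode no subunit, then mitochondrial genes (mt). Red diamonds are the 10, 3, 0 and 1 members called, and lines are medians, which for mitochondrial genes are 0.85 at P1 and 1.37 at P6 in GFP+ against GFP- cells.

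Paired isoforms differed in how they were used. *Cox7a1*, the muscle and heart isoform of subunit 7a, made up 9.31% and 11.8% of *Cox7a1* plus *Cox7a2* per length in P1 GFP+ libraries and 4.71% and 5.41% in P1 GFP- libraries. At P6 its share was 14.3% and 13.2% in GFP+ and 7.86% and 9.32% in GFP- libraries. GFP+ libraries were thus higher at each age, although *Cox7a1* itself was not called (edgeR adjusted p = 0.02 at P1). *Cox6b2* made up 3.47% and 3.83% of *Cox6b1* plus *Cox6b2* in P1 GFP+ and 9.35% and 7.85% in P1 GFP- libraries.

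The c subunit of the ATP synthase ring is made from 3 genes with the same mature protein. Per length, *Atp5g2* made up 59.8% and 57.0% of their sum in P1 GFP+ and 48.1% and 48.1% in P6 GFP+ libraries. Its share in GFP- libraries was 52.0% and 49.1% at P1 and 44.0% and 43.6% at P6. *Atp5g3* took the complementary course, at 38.3% and 40.9% in P1 GFP+ and 49.8% in each P6 GFP+ library. The size of these shares depends on the length used. All annotated exons sum to 2181 bases for *Atp5g3* and 647 for *Atp5g2*, while the transcripts searched for copies have 723 and 647 bases. Without division by length *Atp5g3* was the higher, at 110.1 and 122.6 CPM against 51.02 and 50.74 CPM for *Atp5g2* in P1 GFP+ libraries. Near-identical copies, of at least 98% identity, together cover 100% of the *Atp5g2* transcript and make its own counts uncertain. None of the 3 genes was called in any comparison.

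The 7 genes without a subunit role were not called in any comparison. *Ndufaf2*, an assembly factor of complex I, had 5.43 and 4.18 CPM in P1 GFP+ against 8.95 and 9.6 CPM in P1 GFP- libraries (log2 fold change -0.83, edgeR adjusted p = 0.0181). *Ndufaf3*, another such factor, had 11.5 and 12.4 against 7.97 and 9.89 CPM (log2 fold change 0.52, edgeR adjusted p = 0.0431).

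Other genes of mitochondrial energy supply were compared as lists, whose counts are to be read beside the 16.6% of all tested genes called higher and 20.7% called lower at P1, and 7.72% and 5.19% at P6. Of 18 further assembly factors, 4 were called higher in GFP+ cells at P1 and 0 lower, with *Cox17*, the copper chaperone of complex IV, at a log2 fold change of 0.91 (edgeR adjusted p = 0.00237). Of 18 genes for copying and reading mitochondrial DNA, 2 were higher at P1, namely *Polg2*, the accessory subunit of the mitochondrial DNA polymerase (2.10, edgeR adjusted p = 3.6e-05), and *Ssbp1*, which binds its single strands (0.97, edgeR adjusted p = 0.000572). *Tfam* and *Polrmt*, which start mitochondrial transcription, were not called (log2 fold changes 0.21 and 0.11 at P1).

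Of 11 regulators of mitochondrial biogenesis, 3 were called lower in GFP+ cells at P1, where 20.7% of all genes were, and 0 higher. *Ppargc1a*, a coactivator, had a log2 fold change of -2.20 (edgeR adjusted p = 0.00028), *Gabpa*, an ETS factor, one of -0.88 (edgeR adjusted p = 0.00124) and *Esrrg*, a nuclear receptor, one of -3.56 (edgeR adjusted p = 0.00444). Of 76 mitochondrial ribosomal proteins tested, 4 were called higher at P1 and 1 at P6, with medians of 0.12 and 0.39. Of 78 cytosolic ribosomal proteins tested, 11 were called lower at P1 and 0 higher, which is a smaller share lower than the 20.7% of all genes, and their median was -0.23.

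Of the 6 genes for complex II and cytochrome c, *Sdhc*, a membrane anchor of complex II, was called lower in GFP+ cells at P1 (-0.50, edgeR adjusted p = 0.00732) and none was called at P6. Of 9 mitochondrial carriers, 2 were called higher at P1, *Slc25a5* and *Slc25a13*, and *Slc25a13*, an aspartate and glutamate carrier, was the only gene of these lists with a called interaction (-1.71, edgeR adjusted p = 0.00589). Of 10 genes tested for uncoupling and defence against reactive oxygen, 4 were called higher at P1 (*Sod1*, *Sod2*, *Ucp2* and *Gpx4*) and 1 lower (*Prdx5*), and *Ucp3* was called higher at P6.

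Glycolysis genes were called in both directions. Of 19 genes tested, 8 were called higher and 6 lower in GFP+ cells at P1, and 5 higher and 4 lower at P6, beside 16.6% and 20.7% of all genes at P1 and 7.72% and 5.19% at P6. *Aldoc*, an aldolase, had a log2 fold change of 3.47 (edgeR adjusted p = 0.000333) and *Ldhb*, the heart-type lactate dehydrogenase subunit, one of 1.65 (edgeR adjusted p = 7.1e-05) at P1. *Ldha*, the muscle-type subunit, had one of -0.90 (edgeR adjusted p = 0.000333).

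Promoter sequence was looked at for factors known to act on these genes. Windows of 250 bases before the start, from RefSeq on GRCm38.p6, matched 71 of the 87 nuclear members, and those without a match include *Cox4i1*, *Cox4i2*, *Ndufa4l2*, *Uqcrq* and *Uqcrc2*. The core letters of the NRF1 motif, CGCATGCG, which read alike on both strands, were present in 8 of the 71 (11.3%), namely *Atp5g2*, *Atp5j*, *Atp5k*, *Atp5l*, *Cox6a1*, *Ndufa8*, *Ndufa11* and *Ndufaf4*, and in 1.75% of all 27025 genes with a window. The ETS motif CCGGAAGT, on either strand, was present in 4.23% of members and 3.23% of all genes. The YY1 motif AAGATGGC was present in 2.82% and 1.83%, and the Sp1 motif GGGCGG in 40.8% and 35.4%, both counted on either strand. The NRF1 letters were shortened to CGCATGCG after a longer form had been counted. A match is a description of letters and not a bound site.

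The window of *Uqcr11* is shown because it was the only one of the 6 called members with a window that holds the ETS motif, shown in capitals, at chr10:80406822-80407071 of GRCm38.p6 on the minus strand.
Uqcr11: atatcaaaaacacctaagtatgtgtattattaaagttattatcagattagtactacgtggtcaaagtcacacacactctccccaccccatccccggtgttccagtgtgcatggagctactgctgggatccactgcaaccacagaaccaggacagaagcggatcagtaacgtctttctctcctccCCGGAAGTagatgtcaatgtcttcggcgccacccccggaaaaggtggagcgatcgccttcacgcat
*Cox8a*, *Ndufa6* and *Cox8b* hold none of these motifs in their windows, and *Cox6b2* and *Ndufb4* hold the Sp1 motif.

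Nuclear members are short, with a median exon length of 1217 bases against 3548 bases over 16006 protein-coding genes tested, and mitochondrial members have a median of 784 bases. Protein-coding genes under 1000 bases, measured beside them, had median log2 fold changes of 0.05 at P1 and 0.19 at P6 between the fractions, and of 0.23 in GFP+ cells and 0.03 in GFP- cells between the ages. The part of length in the nuclear medians was not tested.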

How the data were processed

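RNA-seq counts of GFP+ and GFP- cells sorted from P1 and P6 cochleas were used, with 2 libraries in each of 4 groups, grouped by their labels. The authors deposited raw counts for each Ensembl gene, made by aligning paired 100-base reads with TopHat to the mm9 genome and counting them per gene. The submitters' processing notes name TopHat 1.4.0, HTSeq and DESeq 1.9.2, and the methods name another TopHat release. The kit does not mark strand, and the counting mode is not given in the sources used here. Reads on no gene, on several genes or at several places are listed apart from genes and stayed out of library sizes and tests. The gene counts were 64.7% to 76.2% of what is listed for a library.

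Of the 36536 gene IDs, 34391 took their symbol, length and position from the NCBIM37 annotation. Members were chosen by symbol, and the members and lists were chosen with earlier results of these data known. CPM divides by the gene counts of a library, and RPKM further by exon length in kilobases. Each comparison was fitted on its 4 libraries with edgeR 4.0.16 in R 4.3.3 (filterByExpr with minimum count 10 and total 15, TMM, quasi-likelihood test, Benjamini-Hochberg over all genes tested), the interaction on all 8. Calls needed p and adjusted p below 0.01, and the SE is the log2 fold change over the square root of F. Depth was 17769024 to 67695039 gene counts, so members under about 1 CPM rest on few counts. Sums were compared with two-sided exact permutation tests. Near-identical copies (at least 98% identity over at least 100 bases) were found with BLAST+ 2.17.0. The letters searched for NRF1 were shortened to the core of its motif after a longer form had been counted. Figures were drawn with matplotlib 3.10.9.

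The text names all mitochondrial members, up to 5 nuclear members per direction and comparison with the largest called change, the 5 nuclear members with the highest RPKM, tissue isoforms and their general forms, and members that encode no subunit. *Ndufa6*, *Uqcrc1* and *Cox7b* are named outside this rule, after their values were seen. Single genes of the other lists and of the markers are also named outside it. The scripts were tested on simulated data with known fold changes. Alternatives were DESeq2's size factors, gene totals, nuclear gene totals, the DESeq2 1.42.0 test, no filter, all 8 libraries in 1 fit, an adjusted p below 0.05, a replicate block, other totals and members for the sums, and leaving out each library. A ratio without genes that have nuclear copies, a share of nuclear gene counts and a crossed replicate block were added after seeing the data.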

Additional observations from a re-analysis of the deposited data

How the results depend on the processing

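The number of members called depended on the processing. The shares of all genes called are given above for the main fits and, in part, for the DESeq2 test only. The counts below under other settings are therefore not read as results about the members. At P1 the 10 calls became 33 with an adjusted p below 0.05, 24 with no filter on low counts, 6 with all 8 libraries in the fit and 22 with the DESeq2 test, and 4 to 34 when 1 library was left out. At P6 the 3 calls became 26, 22, 18 and 20 in the same order, and 0 to 72 without 1 library. In GFP+ cells between the ages the 0 calls became 16, 28, 12 and 16, and 0 to 84. In GFP- cells the 1 call became 4 with an adjusted p below 0.05, 4 with no filter and 2 with the DESeq2 test, and 0 to 5 without 1 library. The interaction gave 3 calls with no filter and 0 to 4 without 1 library. The cause was not tested, except that leaving out a library leaves 1 sample in an arm, which is then assumed to vary like the others.

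The replicate block changed no count of calls by more than 1.5 times, with 11 calls at P1, 4 at P6, 0 and 1 between the ages and 0 for the interaction. Replicate differences of same-numbered libraries correlated by 0.03 and 0.06 between fractions and by -0.13 and -0.32 between ages across 19233 genes, and with 2 libraries a group these values do not settle whether the numbers pair the libraries. The crossed replicate block gave 2 calls between the ages in GFP+ and 2 in GFP- cells.

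Without 1 library, the difference in the log2 ratio was 0.44 to 1.04 at P1 and 0.69 to 0.99 at P6. Between the ages it was -0.43 to 0.17 in GFP+ cells, with the sign reversed (0.17) without P1 GFP+ replicate 1, and -0.38 to -0.09 in GFP- cells, and -0.40 there with medians of members. Differences in the mitochondrial share were 1.14 to 3.28 percentage points at P1, 3.08 to 5.56 at P6, 0.180 to 2.66 in GFP+ and -0.936 to -0.441 in GFP- cells between the ages, and -0.343 in the last with no-feature and ambiguous counts in the total. Differences in the nuclear share were -0.0406 to 0.00275 points at P1 (0.00275, reversed, without P1 GFP- replicate 2), 0.113 to 0.287 at P6, and 0.0997 to 0.273 and -0.0541 to -0.0107 between the ages, the last reversed to 0.00475 with the wider total.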
